A study of Mus musculus with 8 samples.

Results

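The genes described here are the mouse Wnt ligands, the Frizzled receptors and the secreted antagonists that act outside the cell. They were taken from the table of expression values as every row whose whole symbol was Wnt, Fzd, Sfrp or Dkk followed by a number, with an optional a or b for Wnt, together with Frzb and Wif1. This gave 39 genes of 22558 in the table, of which 19 were Wnt ligands, 10 were Frizzleds and 10 were antagonists. All 10 Frizzleds, 12 Wnt ligands and 8 antagonists reached 1 FPKM in at least 1 library, which left 30 expressed genes. FPKM divides the sequenced fragments of a gene by its transcript length and by the size of the library, so that levels of different genes can be set side by side.

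Wnts are secreted, lipid-modified proteins. Porcn attaches the lipid, Wls carries the ligand to the cell surface, and the ligand binds the cysteine-rich domain of a Frizzled on the receiving cell. Together with the co-receptors Lrp5 and Lrp6 this stabilises beta-catenin, while other Wnt and Frizzled pairs act on cell polarity and movement without it. Sfrp proteins, Frzb and Wif1 bind the ligand, and Dkk1 and its closest relatives bind the co-receptors. In the mouse embryo Wnt signalling is needed for the primitive streak and the posterior body, and antagonists made at the anterior end keep it low where the forebrain forms.

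The cells came from the R1/E and R1 lines of mouse embryonic stem cells. They were kept on feeder cells and then differentiated as embryoid bodies, which are floating aggregates. One arm carried inducible Oct6, the POU domain transcription factor encoded by Pou3f1, with overexpression induced by doxycycline. The other arm was labelled control. RNA of each arm was sequenced at day 2, day 4 and day 6, with 1 library per arm and day, and an Oct6 ChIP library and its input came from Oct6-overexpressing cells at day 4 of neural differentiation. The titles name doxycycline for the induced libraries only. Whether control cells received it, and whether both arms are the same line or clone, is not stated, so that an effect of the drug or of the line and one of Oct6 cannot be told apart. All 6 titles also carry the prefix fbs, whereas the growth protocol describes serum-free medium. No difference within a day has a replicate check.

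At days 2, 4 and 6 Pou3f1 had 312, 222 and 86.8 FPKM in induced cells, against 64.3, 10.1 and 4.76 FPKM in control cells. Library depth, estimated from the smallest steps between values, lay between 23300000 and 50400000 fragments, and 1 fragment in a transcript of 2 kb was worth 0.00992 to 0.0214 FPKM. Some marker lists of other cell types stood apart between the arms. The summed level of 6 visceral endoderm markers on the 3 days was 6.1, 6.6 and 13.3 FPKM in induced cells, against 35.7, 121.8 and 168.3 FPKM in control cells. That of 5 cardiac muscle markers was 4.16, 3.06 and 9.44 FPKM in induced cells and 2.8, 14.2 and 191.3 FPKM in control cells. Of 6 neural progenitor markers it was 36.5, 45.7 and 89.5 FPKM in induced cells and 5.08, 16.5 and 18.5 FPKM in control cells. Single genes gave much of the induced sums, with 22.6 FPKM from Sox21 at day 2 and 58.2 FPKM from Fabp7 at day 6. At day 4 Nes had the higher value in control cells. In these bulk samples fewer cells of a type and less RNA per cell cannot be told apart.

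A gene was counted as higher or lower between 2 libraries where it had at least 1 FPKM in either and its log2(FPKM + 1) differed by at least 1, which is a 2-fold rule and not a test. A gene with 1 FPKM in only 1 of the 2 libraries could be called only toward that library, in this family as among all genes. At day 2, 8 of the 22 genes above the floor were higher in induced cells (36.4%), against 9.72% of all genes, and 1 was lower (4.55%), against 1.83% of all genes. Of the 8 higher genes, Dkk2, Dkk3, Frzb and Fzd1 were above the floor in the induced library only. Without a floor the count was also 8. At day 4, 4 of 22 were higher (18.2%), against 6.09% of all genes, and 1 was lower (4.55%), against 2.11%. At day 6, 1 of 28 was higher (3.57%), a share near the 3.37% of all genes, and 4 were lower (14.3%), against 2.1% of all genes. The median difference of these genes was 0.56, -0.20 and 0.03 on the log2 scale at days 2, 4 and 6, beside 0.17, 0.10 and 0.06 for all genes. Rescaling the libraries moved the median of all genes at day 2 to 0.03 (median ratio scaling) or -0.03 (quantile normalisation), and the 8 higher genes of day 2 became 5 or 4. With log2(FPKM + 0.1) in place of log2(FPKM + 1) they became 11, with Sfrp5, Wnt5a and Wnt5b added. In all, 13 of the 30 expressed genes passed the 2-fold rule on at least 1 day, namely 6 Frizzleds, 5 antagonists and 2 ligands, while 17% of all genes did.

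**Figure D1:**
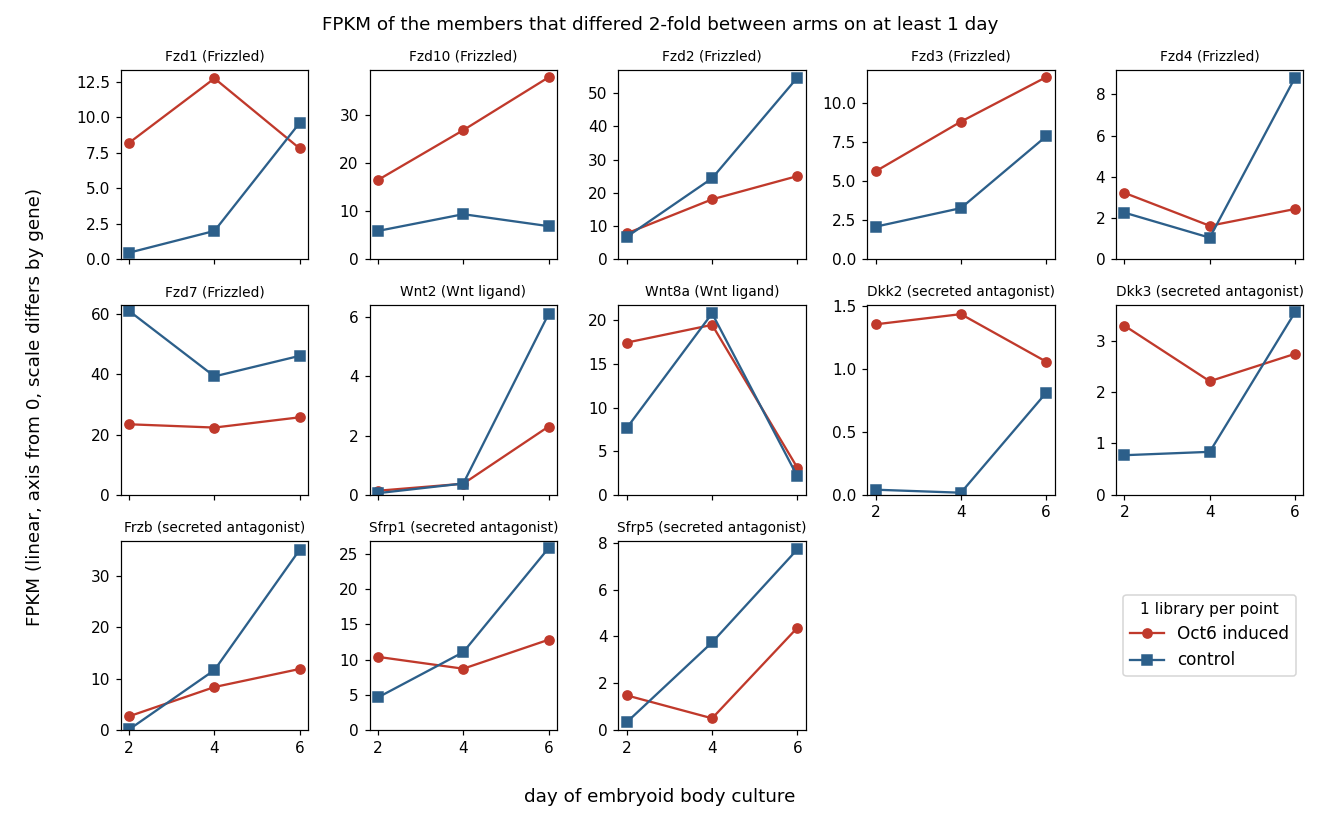
FPKM (linear axis from 0, with its own scale for each gene) by day of embryoid body culture for the 13 genes that differed at least 2-fold between arms on any day. Each point is 1 library, with induced cells as red circles and control cells as blue squares. The lines of Fzd10 and Fzd7 stay apart on all 3 days, while those of Fzd1, Frzb and Sfrp1 cross.

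Among the receptors, Fzd10, Fzd3 and Fzd6 had the higher value in induced cells and Fzd7 the lower one on all 3 days. The Fzd6 differences were small, at 0.58, 0.14 and 0.06 on the log2 scale. Fzd1, Fzd4 and Fzd8 were higher in induced cells at days 2 and 4 only, of which Fzd1 passed the 2-fold rule there. Fzd10, a Frizzled known from the primitive streak and the neural tube of vertebrate embryos, had 16.5, 26.9 and 37.9 FPKM in induced cells on the 3 days, against 5.90, 9.38 and 6.89 FPKM in control cells. All 3 induced libraries lay above all 3 control libraries, and the FPKM ratio was 2.8, 2.87 and 5.5. By the 2-fold rule, with its floor, Fzd10 was the only one of the 39 genes that was higher on every day, and none was lower on every day. Its log2 differences were 1.35, 1.43 and 2.30.

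Fzd7, the Frizzled best known from undifferentiated embryonic stem cells, had the opposite order. It had 23.4, 22.3 and 25.7 FPKM in induced cells, against 61.0, 39.3 and 46.1 FPKM in control cells. The induced values were nearly flat over the days and all lay below the lowest control value. The log2 difference was -1.35 at day 2, which passed the 2-fold rule, and -0.79 and -0.82 at days 4 and 6, which did not. The 5 pluripotency markers summed to 762.8, 768.2 and 271.2 FPKM in induced cells, against 1500.1, 723.2 and 221.7 FPKM in control cells. By the 2-fold rule 3 of the 5 were lower in induced cells at day 2. Nanog and Zfp42 were not, with 53.0 and 106.4 FPKM in induced and 50.6 and 103.9 FPKM in control cells. At day 4 and at day 6, 1 of the 5 was higher in induced cells and none was lower. The part of these markers in the Fzd7 result was not tested.

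The Fzd10 gene lies on chromosome 5 (129106719-129109968, plus strand, build mm9) and Fzd7 on chromosome 1 (59538991-59543791, plus strand). The annotation also has a second entry named Fzd10, typed as a pseudogene, inside the first, so that the counting of Fzd10 is uncertain. Oct6 peaks, each 133 bp wide, were called near both genes at day 4. Near Fzd10 there were 2, with centres at -0.535 and -0.102 kb from the gene start, and both had the deposited score of 10.1, at or below which 41.3% of the list lies. The peak whose nearest coding start was Fzd7 lay at -44 kb, with a score of 25.3 that ranked 94 among 7979 peaks. The sequences are shown because these are the peaks of the receptors whose arms did not overlap on any day. These sequences are written on the plus strand, and capitals mark matches to ATGNATAT, where N is any base, or its reverse complement. This pattern was chosen after the peak sequences had been read.
Fzd10 peak chr5:129106118-129106250: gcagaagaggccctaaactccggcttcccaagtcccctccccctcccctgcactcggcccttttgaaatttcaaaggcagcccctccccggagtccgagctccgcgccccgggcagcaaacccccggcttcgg
Fzd10 peak chr5:129106551-129106683: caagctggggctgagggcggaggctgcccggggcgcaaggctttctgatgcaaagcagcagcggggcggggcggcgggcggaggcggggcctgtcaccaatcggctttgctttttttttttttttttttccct
Fzd7 peak chr1:59494881-59495013: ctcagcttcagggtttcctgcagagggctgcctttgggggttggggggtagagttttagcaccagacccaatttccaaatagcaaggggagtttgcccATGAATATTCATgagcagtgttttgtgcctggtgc

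The Fzd7 peak holds overlapping matches on both strands in the run ATGAATATTCAT, which is its own reverse complement, so that they are the same run read both ways. The Fzd10 peaks hold none. The GC content was 66.9% and 62.4% in the Fzd10 peaks and 51.9% in the Fzd7 peak, beside a median of 41.4% over the list.

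Fzd1, a receptor that can signal through beta-catenin, had 8.20, 12.7 and 7.80 FPKM in induced cells, against 0.460, 1.99 and 9.60 FPKM in control cells. The induced libraries were 17.8-fold and 6.4-fold higher in FPKM at days 2 and 4, and by day 6 the control library had the higher value. The control level at day 2 came from an estimated 68.2 fragments. Fzd3, known for its part in axon guidance and neural tube closure, had 5.63, 8.81 and 11.7 FPKM in induced cells, against 2.08, 3.27 and 7.87 FPKM in control cells. Both arms had more Fzd3 on each later day, and induced cells were ahead by 1.11, 1.20 and 0.51 on the log2 scale. The day 2 difference dropped under the 2-fold rule after rescaling, to 0.99 (median ratio scaling) or 0.69 (quantile normalisation). By the same rule 2, 5 and 2 of the 6 neural progenitor markers and 2, 3 and 5 of the 5 neuronal markers were higher in induced cells at days 2, 4 and 6, and none was lower. Among those not past the rule, Elavl3 had 1.27 FPKM in induced and 1.63 FPKM in control cells at day 2, and Nes had 9.20 FPKM in induced and 13.8 FPKM in control cells at day 4. The part of these markers in the receptor results was not tested.

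Fzd2 and Fzd4 stood out only at day 6. Fzd2, a receptor of early heart and mesenchyme, had 7.78, 18.0 and 25.0 FPKM in induced cells and 6.75, 24.4 and 54.7 FPKM in control cells. The arms were close at day 2, where the sign of the difference flipped under quantile normalisation, and at day 6 the induced library was lower by 1.10 on the log2 scale. Fzd4, the Norrin receptor of blood vessels, had 3.22, 1.62 and 2.44 FPKM in induced cells and 2.26, 1.04 and 8.81 FPKM in control cells. Its log2 difference at day 6 was -1.51, and at day 2 its sign also flipped under quantile normalisation. The other 4 Frizzleds did not pass the 2-fold rule on any day. Fzd5 had 9.07, 5.47 and 10.04 FPKM in induced and 6.56, 7.67 and 11.5 FPKM in control cells. Fzd6, which acts in planar cell polarity, had 7.76, 7.33 and 5.50 FPKM in induced and 4.88, 6.53 and 5.25 FPKM in control cells. Both receptors differed by less than 1 on the log2 scale on each day. Fzd8 had 3.45, 6.21 and 4.40 FPKM in induced and 2.67, 5.51 and 7.78 FPKM in control cells. Fzd9 had 0.555, 0.589 and 0.773 FPKM in induced and 1.92, 0.928 and 0.755 FPKM in control cells, so that its one value above 1 FPKM was that of control cells at day 2. The signs of the small differences of Fzd8 at days 2 and 4 and of Fzd6 at days 4 and 6 flipped under quantile normalisation.

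The summed level of the 10 Frizzleds differed less between arms than its make-up. At days 2, 4 and 6 it was 85.6, 110 and 131.3 FPKM in induced cells, against 94.5, 100 and 159.3 FPKM in control cells. Fzd7 made up 27.3%, 20.3% and 19.6% of that sum in induced cells and 64.6%, 39.3% and 29% in control cells. Fzd10 made up 19.3%, 24.5% and 28.9% in induced cells and 6.24%, 9.38% and 4.33% in control cells. The ratio of Fzd10 to Fzd7 was 0.706, 1.21 and 1.47 in induced cells, against 0.0966, 0.239 and 0.149 in control cells. The most abundant Frizzled of the induced libraries was thus Fzd7 at day 2 and Fzd10 at days 4 and 6, and that of the control libraries was Fzd7 at days 2 and 4 and Fzd2 at day 6, with 34.3% of the sum. The median log2 difference of the Frizzleds was 0.39, 0.15 and -0.27, and the day 4 value became -0.02 after quantile normalisation.

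**Figure D2:**
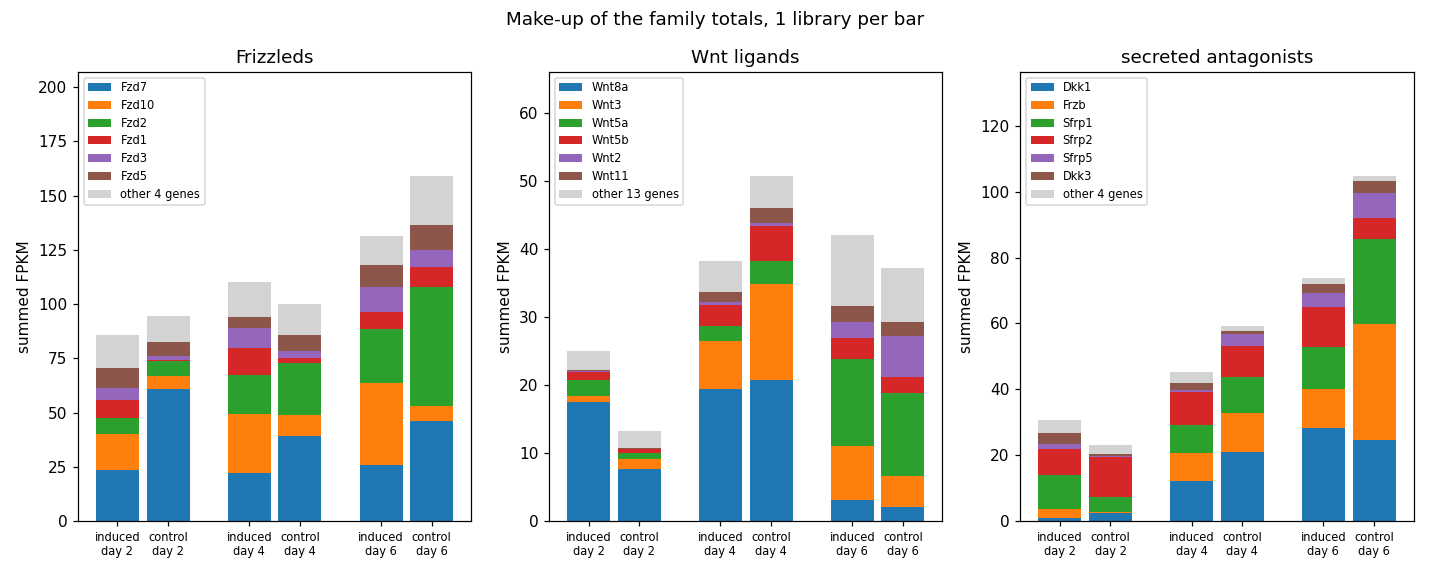
Summed FPKM of the Frizzleds, the Wnt ligands and the secreted antagonists, 1 library per bar, with induced cells left of control cells on each day and colours for the leading genes. At day 2 the Fzd7 part of the bar is 27.3% in induced and 64.6% in control cells, and the Wnt8a part is large in both arms until day 4 and small at day 6.

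By the 2-fold rule few ligands differed between the arms. Wnt8a, a ligand expressed briefly in the primitive streak, had 17.4 FPKM at day 2, 19.5 at day 4 and 3.10 at day 6 in induced cells, against 7.67, 20.8 and 2.11 FPKM in control cells. Only the day 2 libraries stood apart, with a log2 difference of 1.09 that dropped under the 2-fold rule after either rescaling. Wnt8a made up 69.7%, 50.9% and 7.38% of the summed ligand level in induced cells, and 58%, 40.9% and 5.67% in control cells. Wnt2, a ligand of early heart and blood vessel progenitors, had 0.135, 0.372 and 2.30 FPKM in induced cells and 0.0537, 0.379 and 6.10 FPKM in control cells. It was above the floor at day 6 only, with a log2 difference of -1.10.

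Wnt3, the ligand that the mouse needs to form a primitive streak, had 0.913, 7.03 and 7.89 FPKM in induced cells and 1.46, 14.0 and 4.46 FPKM in control cells. Control cells were highest at day 4 and induced cells at day 6, and the log2 differences of -0.36, -0.90 and 0.70 stayed under 1 in size. After median ratio scaling or quantile normalisation the day 4 difference of Wnt3 passed the 2-fold rule as lower. Wnt3a, which maintains the progenitors of the posterior body, had 0.0259, 0.923 and 1.26 FPKM in induced cells, against 0, 0.409 and 0.147 FPKM in control cells, where the first is a listed 0. Its log2 difference at day 6 was 0.98, just under the threshold, and 2.46 with log2(FPKM + 0.1). Wnt5a, a ligand known for signalling without beta-catenin, had 2.35, 2.21 and 12.9 FPKM in induced cells and 0.875, 3.46 and 12.3 FPKM in control cells. It was the leading ligand of both arms at day 6. Wnt5b had 1.25, 3.10 and 3.10 FPKM in induced and 0.534, 5.17 and 2.31 FPKM in control cells. At day 2 Wnt5a and Wnt5b were 2.68-fold and 2.34-fold higher in FPKM in induced cells. Both passed the 2-fold rule there with log2(FPKM + 0.1) but not with log2(FPKM + 1).

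Wnt11, a ligand of cell movement and heart formation, had 0.199, 1.53 and 2.38 FPKM in induced and 0.115, 2.27 and 2.08 FPKM in control cells. Wnt4 had 0.270, 0.429 and 2.40 FPKM in induced and 0.263, 0.930 and 1.42 FPKM in control cells. Wnt6 had 0.434, 0.407 and 1.62 FPKM in induced and 0.475, 0.657 and 0.911 FPKM in control cells. These 3 ligands had their highest level at day 6 in induced cells, and the arms overlapped. Wnt7b had 0.110, 0.254 and 0.718 FPKM in induced and 0.481, 0.274 and 1.20 FPKM in control cells, Wnt9a stayed between 0.327 and 1.05 FPKM in all libraries, and Wnt10b was just above the floor of 1 FPKM in both day 6 libraries. The ligand sum was 25, 38.3 and 42 FPKM in induced cells and 13.2, 50.8 and 37.3 FPKM in control cells. Of the ligands above the floor, 1 of 4 was higher at day 2 (9.72% of all genes), none of 5 differed 2-fold at day 4 (6.09% of all genes were higher and 2.11% lower), and 1 of 12 was lower at day 6 (2.1% of all genes). The streak and early mesoderm markers, 6 genes, summed to 10, 237.8 and 89.2 FPKM in induced cells and 6.55, 363.0 and 78.3 FPKM in control cells, with 1 of the 6 listed at 0 in each day 2 library.

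**Figure D3:**
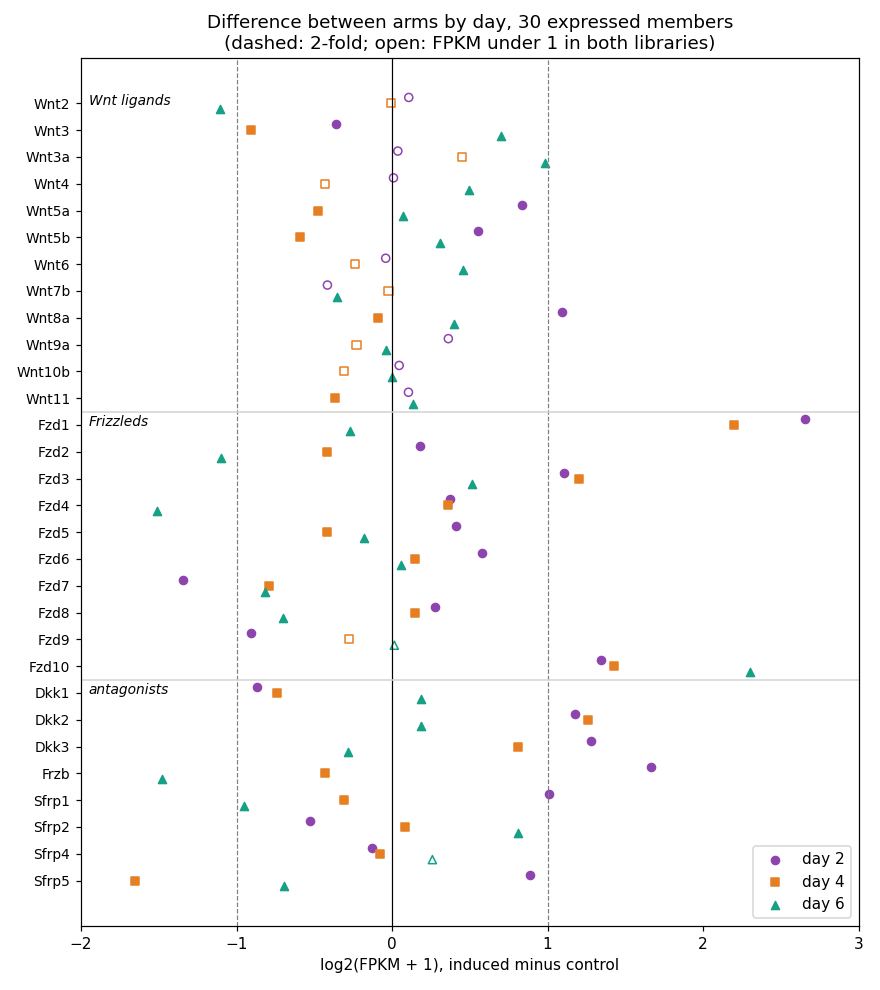
Difference in log2(FPKM + 1), induced minus control, for the 30 expressed genes, with circles for day 2, squares for day 4 and triangles for day 6. Dashed lines mark 2-fold, and open symbols have less than 1 FPKM in both libraries. Fzd10 lies right of the upper line on all 3 days, and Frzb lies right of it at day 2 and left of the lower line at day 6.

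At day 2, 4 of the 8 antagonists above the floor were higher in induced cells (Dkk2, Dkk3, Frzb and Sfrp1), against 9.72% of all genes, and 3 of these 4 had the higher value in control cells at day 6. Dkk2, Dkk3 and Frzb reached the floor at day 2 in the induced library only, so that they could not have been called lower there. At 1 FPKM or more stood 7 antagonists in the induced and 4 in the control library of day 2. Sfrp1 dropped under the 2-fold rule after either rescaling and Dkk3 after quantile normalisation. Frzb, a Frizzled-related protein that binds Wnts, had 2.73, 8.41 and 11.9 FPKM in induced cells, against 0.174, 11.7 and 35.1 FPKM in control cells. The induced library was 15.7-fold higher in FPKM at day 2, and at day 6 it had 0.34 times the control level. The log2 differences were 1.67, -0.43 and -1.48, and the control level at day 2 came from an estimated 18.6 fragments. Sfrp1 had 10.4, 8.72 and 12.8 FPKM in induced cells and 4.66, 11.1 and 25.8 FPKM in control cells. Induced cells were nearly level over the days, and the log2 difference at day 2 was 1.01.

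Sfrp5, an antagonist of the anterior visceral endoderm, had 1.49, 0.510 and 4.37 FPKM in induced cells and 0.348, 3.75 and 7.71 FPKM in control cells. By the 2-fold rule it was the only gene of the 39 that was lower at day 4, by -1.65 on the log2 scale. On that day all 6 visceral endoderm markers were lower by the same rule in induced cells, and Ttr, one of them, had 0.200 FPKM in induced and 26.6 FPKM in control cells; their part in the Sfrp5 result was not tested. At day 6, where Frzb, Fzd2, Fzd4 and Wnt2 were lower, all 5 cardiac markers, all 6 visceral endoderm markers and 4 of 6 fibroblast markers were lower as well, the last summing to 33.4 FPKM in induced and 97.4 FPKM in control cells. The part of these markers was not tested.

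Dkk2, a co-receptor ligand with weak or context-dependent effects, had 1.36, 1.44 and 1.06 FPKM in induced cells, against 0.0400, 0.0160 and 0.811 FPKM in control cells. All 3 induced libraries lay above all 3 control libraries, although the control values at days 2 and 4 came from only about 5 and 2.98 estimated fragments. Dkk3, a divergent relative that does not bind the co-receptors, had 3.30, 2.22 and 2.75 FPKM in induced cells and 0.772, 0.837 and 3.56 FPKM in control cells, with log2 differences of 1.28, 0.81 and -0.28. At day 2 the fibroblast markers summed to 94.7 FPKM in induced and 10.8 FPKM in control cells, of which Col1a2 gave 80.2 and 1.76 FPKM. By the 2-fold rule 2 of these 6 markers were higher and 0 lower, and Thy1 had 4.38 FPKM in induced and 4.73 FPKM in control cells. The part of feeder cells in the higher antagonists of day 2 was not tested.

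Dkk1, the co-receptor antagonist that head formation requires, had 0.935, 12.1 and 28.1 FPKM in induced cells and 2.53, 21.0 and 24.6 FPKM in control cells. Both arms had more on each later day, and the differences of -0.87, -0.74 and 0.18 stayed under 1 in size. Sfrp2 had 7.95, 9.96 and 12.01 FPKM in induced cells, more on each later day, and 11.9, 9.36 and 6.43 FPKM in control cells, less on each later day. Its differences were -0.53, 0.08 and 0.81, the second of which flipped in sign under both rescalings. Sfrp4 had 2.23, 1.44 and 0.711 FPKM in induced and 2.53, 1.58 and 0.430 FPKM in control cells. The antagonists summed to 30.6, 45.1 and 73.9 FPKM in induced cells and 23.1, 59.4 and 104.9 FPKM in control cells. The leading antagonist of induced cells was Sfrp1 at day 2 and Dkk1 afterwards, and that of control cells was Sfrp2, then Dkk1, then Frzb with 33.5% of the sum.

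Among the antagonists Frzb had the Oct6 peak of the highest score and the widest spread of differences between days. A peak of Dkk1 was the only one of the antagonists with matches to ATGNATAT, a pattern chosen after these sequences had been read. The sequences of these 2 peaks are shown for those reasons. The Frzb gene lies on chromosome 2 (80252127-80287782, minus strand), and a peak of score 19.0 (rank 268) lies in an intron, 10 kb into the gene. The Dkk1 gene lies on chromosome 19 (30620353-30624155, minus strand), and a peak of score 12.7 lies at -36.4 kb from its start. They are shown on the plus strand, with ATGNATAT matches of either strand in capitals.
Frzb peak chr2:80277677-80277809: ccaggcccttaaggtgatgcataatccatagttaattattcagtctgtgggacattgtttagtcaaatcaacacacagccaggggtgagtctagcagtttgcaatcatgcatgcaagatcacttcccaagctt
Dkk1 peak chr19:30660440-30660572: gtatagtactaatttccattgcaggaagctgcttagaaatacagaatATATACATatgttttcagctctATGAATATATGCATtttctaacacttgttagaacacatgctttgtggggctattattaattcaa

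The Dkk1 peak holds 3 matches and has a GC content of 30.8%, and the Frzb intron peak holds none. Over the family 3 of 29 peaks hold a match, beside 15.2% of all placed peaks.

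The 9 genes that reached 1 FPKM in no library were Dkk4, Wif1, Wnt1, Wnt2b, Wnt7a, Wnt8b, Wnt9b, Wnt10a and Wnt16. Their highest values lay between 0.208 FPKM for Wnt10a and 0.807 FPKM for Wnt7a. Wnt7a, a ligand of the nervous system, had 0.0930, 0.743 and 0.807 FPKM in induced cells, against 0.147, 0.0359 and 0.0120 FPKM in control cells, but stayed under the floor of the 2-fold rule. Dkk4 was listed at 0 in 3 libraries and Wnt1 in 1.

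The only replication in the design is over days, so limma was fitted to all 13661 expressed genes with day as a block, which asks whether the difference between arms was steady over the 3 days and not whether repeated cultures agree. None of the 30 genes passed an adjusted p of 0.05, against 0.022% of all genes. At an unadjusted p under 0.05 there were 4 higher genes of 30 (Fzd10, Fzd3, Dkk2 and Fzd1), against 16.3% of all genes, and 1 lower gene (Fzd7), against 4.72%, so that neither share stood above the background. Fzd10 differed by 1.69 ± 0.22 (SE, n = 3 days, limma adjusted p = 0.0912) and Fzd7 by -0.98 ± 0.14 (limma adjusted p = 0.0963), each in the same direction on 3 of 3 days. Fzd3 differed by 0.94 ± 0.19 (adjusted p = 0.139), Dkk2 by 0.88 ± 0.28 (adjusted p = 0.192) and Fzd1 by 1.53 ± 0.58 (adjusted p = 0.232), all from limma. All 3 induced libraries lay above all 3 control libraries for 2 of the 30 genes, Fzd10 and Dkk2, against 12.6% of all genes, and below them for 1, Fzd7, against 2.38%.

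A second limma fit, with a linear trend of the arm difference over days, asked whether the difference moved with time. It has 1 residual degree of freedom, and none of the 30 passed the adjusted p, nor did any other gene (0% of all genes). At an unadjusted p under 0.05, the trend ran toward induced cells for 3 of the 30 (3.44% of all genes) and toward control cells for 7 (9.68% of all genes). Frzb had the steepest of these, -0.79 ± 0.10 per day on the log2 scale (SE, limma adjusted p = 0.149). Sfrp1 had -0.49 ± 0.08 (adjusted p = 0.169), Fzd1 -0.73 ± 0.15 (adjusted p = 0.21) and Fzd2 -0.32 ± 0.06 (adjusted p = 0.198), against 0.33 ± 0.07 for Sfrp2 (adjusted p = 0.215), all by limma.

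Within the arms, the same 2-fold rule described the time course, with libraries shared between these comparisons and those above. In induced cells, 5 of 22 genes were higher at day 4 than at day 2 (2.73% of all genes) and none lower (2.36%). They were Dkk1 (2.76 on the log2 scale), Wnt3 (2.07), Frzb (1.34), Fzd2 (1.11) and Wnt11 (1.08). Between days 4 and 6 in induced cells, 5 of 27 were higher at day 6 (2.98% of all genes), namely Wnt5a (2.12), Sfrp5 (1.83), Wnt2 (1.27), Wnt4 (1.25) and Dkk1 (1.15). Wnt8a was the 1 lower gene, by -2.32 (2.1% of all genes were lower).

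In control cells, 11 of 21 genes were higher at day 4 than at day 2 (9.63% of all genes) and none lower (4.65%). All 5 ligands above the floor were among them, with Wnt3 at 2.61, Wnt5b at 2.01, Wnt11 at 1.55, Wnt8a at 1.33 and Wnt5a at 1.25 on the log2 scale. The other higher genes were Frzb (3.44), Dkk1 (2.64), Sfrp5 (1.82), Fzd2 (1.71), Sfrp1 (1.09) and Fzd1 (1.03). Wnt5b, Wnt11, Wnt5a, Frzb, Sfrp5 and Fzd1 were under 1 FPKM at day 2 and entered through day 4 only. They could therefore not have been called lower, and the share of ligands partly follows from the floor. Between days 4 and 6 in control cells, 9 of 26 were higher at day 6 (6.15% of all genes) and 2 were lower (2.97%), the lower ones being Wnt8a (-2.81) and Wnt3 (-1.46). The higher ones were led by Wnt2 (2.36), Fzd4 (2.26), Fzd1 (1.83), Wnt5a (1.57) and Frzb (1.51).

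Peaks near the whole family were as frequent as near other genes. Of the 39 genes, 5 had an Oct6 peak centre within 10 kb of the start (12.8%), against 13.2% of 21586 annotated genes of the table and 17.8% of the expressed ones. They were Fzd10, Fzd5, Fzd8, Frzb and Sfrp4. Each peak within 100 kb or in a gene body was given only to its closest gene of the family. On this count 20 of the 39 genes had 29 peaks, of which 15 had that gene as the nearest coding start. Neighbouring genes that share a peak are missed, such as Wnt6, which had a peak within 50 kb, so that more genes had a peak in reach. None of the 29 holds ATGCAAAT, the POU octamer, and 3 hold ATGNATAT, namely those of Fzd7 and Dkk1 shown above and the one at -0.736 kb from the start of Fzd8. Over all placed peaks ATGCAAAT occurs on either strand in 4.19% of peaks and 1.27% of flanks of the same length, and ATGNATAT in 15.2% of peaks and 4.49% of flanks. The pattern ATGNATAT was chosen after the peak sequences of these genes had been read. Peaks came from 1 ChIP library at day 4, and of the genes with a peak within 10 kb only Fzd10 differed 2-fold in RNA on that day.

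**Figure D4:**
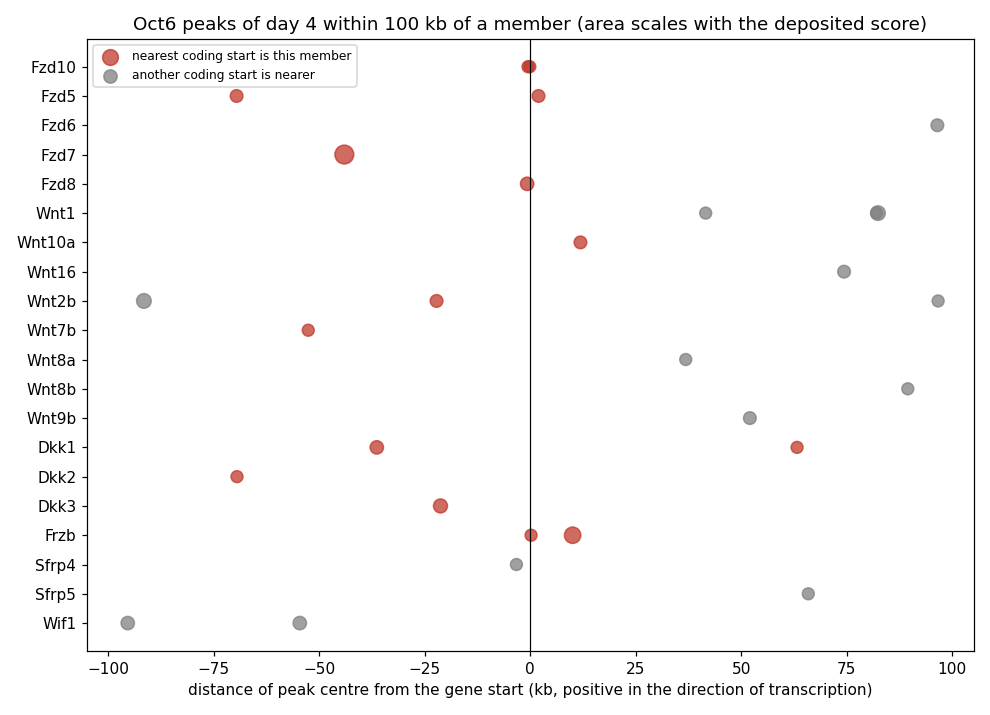
Distance in kb between each Oct6 peak centre of day 4 and the start of the named gene, positive in the direction of transcription, with the area of a point scaling with the deposited score. Red points have that gene as the nearest coding start. Peaks of Fzd10, Fzd8 and Frzb lie beside the start, and the largest point is the Fzd7 peak at -44 kb, with a score of 25.3.

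The other genes of the pathway were read from a list of 58, of which 55 were expressed. By the 2-fold rule 8 of 49 were higher (16.3%) and 2 lower (4.08%) at day 2, against 9.72% and 1.83% of all genes. At day 4, 5 of 55 were higher (9.09%) and 1 lower (1.82%), against 6.09% and 2.11%, and at day 6, 3 of 54 were higher (5.56%) and 1 lower (1.85%), against 3.37% and 2.1%. With limma over the 3 days none of the 55 passed the adjusted p. At an unadjusted limma p under 0.05 there were 12 higher and 3 lower ones, together 27.3% of the 55. Among all genes the share was 21%, with 16.3% higher and 4.72% lower. Sost, which binds the co-receptors, had 14.0, 4.26 and 1.499 FPKM in induced cells, against a listed 0, 0.0190 and 0.230 FPKM in control cells, and was 2-fold higher on all 3 days. Shisa3, which holds Frizzleds back in the endoplasmic reticulum, had 62.3, 14.8 and 2.14 FPKM in induced cells, against 0.837, 0.598 and 1.67 FPKM in control cells. Both antagonists were thus highest in the induced day 2 library.

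Wls, the carrier of Wnt ligands, had 26.3, 49.9 and 86.0 FPKM in induced cells and 2.80, 34.8 and 81.1 FPKM in control cells, so that the arms stood apart at day 2 and were close at day 6. Gpc3, a cell surface proteoglycan that binds Wnts, had 59.2, 51.7 and 165.0 FPKM in induced cells and 12.6, 122.0 and 250.2 FPKM in control cells, higher by 2.15 on the log2 scale at day 2 and lower by -1.22 at day 4. Lef1, a transcription factor of the pathway and often its target, had 3.75, 4.70 and 8.19 FPKM in induced cells and 16.8, 6.63 and 7.42 FPKM in control cells, and stood apart at day 2 only. Notum, the enzyme that removes the lipid from Wnts, had 6.06, 5.77 and 4.64 FPKM in induced cells and 7.35, 1.19 and 1.297 FPKM in control cells. It was higher in induced cells by 1.63 at day 4 and 1.296 at day 6 on the log2 scale, both past the 2-fold rule, and not at day 2.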

How the data were processed

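The submitters' processing notes name build mm9, HOMER, Cuffdiff, TopHat 1.4.1 and Cufflinks 1.3.0. The authors deposited 1 table of FPKM values for 6 RNA libraries and 1 list of Oct6 peaks with the authors' HOMER score, which was used only to describe peaks. Treatment of multi-mapping reads, strand and the use of the input are not given in the sources used here. Overlapping and near-identical genes are therefore uncertain.

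Values were taken as log2(FPKM + 1), which understates folds of weakly expressed genes. With 1 library per arm and day, differences within a day follow a 2-fold rule at a floor of 1 FPKM and carry no test. limma 3.58.1 in R 4.3.3 (eBayes with trend, day as a block, Benjamini-Hochberg over 13661 genes) tested the difference over days. The limma fits were tested on simulated data, with a capped residual spread and changes only in well expressed genes. That simulation does not show how the fits perform for noisier or weakly expressed genes. Relative depth came from the most frequent ratio among values below 0.3 FPKM and is an estimate.

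Peaks (7965 of 7979 placed) were set against NCBIM37, the assembly of mm9, with GENCODE gene starts, to which all 39 symbols matched and 95.7% of the table did. Flanks had their outer end 500 bp from the peak edge. Python 3.11.15, pandas 2.3.3, numpy 2.4.6, matplotlib 3.10.9 and samtools 1.23.1 were used.

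The genes and lists were chosen with earlier results of these data known. All genes of the family are listed, those at 1 FPKM or more are given with values, and of the other pathway genes the 6 with the largest difference on any day are named. Alternatives were the pseudocount, the floor, the fold, the scaling, the model, leaving out each day, and the distance and score of peaks.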

Additional observations from a re-analysis of the deposited data

Results flagged for a closer look

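Frzb differed between arms in opposite directions at the first and the last day, by 1.67 on the log2 scale at day 2 and by -1.48 at day 6, both past the 2-fold rule. The trend of the difference over days did not pass the adjusted threshold (limma adjusted p = 0.149). On the log2(FPKM + 1) scale no other gene of the family was 2-fold higher on one day and 2-fold lower on another. On the log2(FPKM + 0.1) scale the same was so of Sfrp5, with 1.83 at day 2 and -2.66 at day 4, and of Sfrp1, with 1.14 at day 2 and -1.003 at day 6.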

How the results depend on the processing

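The limma test over days already pairs the arms by day, and without that block it passed 0 of the 30 genes as well (lowest adjusted p 0.184). No paired analysis by replicate number was possible because the labels give none. Of 74 alternative counts, 57 stayed within 1.5 times the reported count and 17 did not. At day 2 the 8 higher genes became 5 after median ratio scaling (without Fzd3, Sfrp1 and Wnt8a) and 4 after quantile normalisation (also without Dkk3). The 1 lower gene of day 2 became 3 with log2(FPKM + 0.1), 2 with median ratio scaling, 3 with quantile normalisation and 3 at 1.5-fold, each time with Fzd9 added and, except with median ratio scaling, Dkk1. The 1 lower gene of day 4 became 2 under either scaling (with Wnt3) and 5 at 1.5-fold. At day 6 the 1 higher gene became 2 with log2(FPKM + 0.1) and 4 at 1.5-fold, and the 4 lower genes became 8 at 1.5-fold. In the time course, whose alternatives were chosen after seeing the data, log2(FPKM + 0.1) gave 1 lower gene in place of 0 between days 2 and 4 in induced cells and likewise 1 in control cells, and 4 in place of 2 between days 4 and 6 in control cells. The 5 genes with a near peak became 13 within 50 kb and 2 (Fzd5 and Fzd8) among peaks at or above the median score. limma passed 0 of the tested genes of the family under all 10 alternatives, with a lowest adjusted p of 0.0503 without day 6. Of 216 alternative values of single genes, 206 moved by less than 0.5 on the log2 scale, 10 moved more, all with log2(FPKM + 0.1), and 0 of those past the 2-fold rule reversed. With 1 library per arm and day, depth limits genes near the floor, such as Dkk2 in control cells.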

Other observations

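Several Wnt genes lie beside each other, and their levels were read as pairs. Wnt3 and Wnt9b lie 24.3 kb apart on chromosome 11 on opposite strands. Wnt3 reached 7.03 FPKM in induced and 14.0 FPKM in control cells at day 4, while Wnt9b stayed at or under 0.441 FPKM in all 6 libraries. Wnt3a and Wnt9a lie 16.2 kb apart on the same chromosome, and at day 6 Wnt3a had 1.26 FPKM in induced and 0.147 FPKM in control cells, beside 0.991 and 1.05 FPKM for Wnt9a. Wnt6 and Wnt10a lie 6.2 kb apart on chromosome 1 on the same strand. Wnt6 had 1.62 FPKM in induced and 0.911 FPKM in control cells at day 6, and Wnt10a stayed at or under 0.208 FPKM in all 6 libraries. No test was made of these pairs.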
